A study of Mus musculus with 31 samples.

Results

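The feedback genes of the RAS-MAPK pathway were described in mouse squamous cell carcinoma (SCC) cells driven by oncogenic Hras. The set held 10 genes chosen by name: Hras itself, the kinase Map3k8, the dual-specificity phosphatases Dusp1, Dusp4, Dusp5 and Dusp6, the Sprouty genes Spry1, Spry2 and Spry4, and the transcription factor Etv4. All 10 were found by Entrez identifier among the 20704 genes counted for ribosome-protected fragments (RPF, the pieces of mRNA that ribosomes shield from digestion) and the 24593 genes counted for total RNA. Cells carried an Hras G12V allele and TgfbrII alleles that the labels call fl/fl, while the resource list of the study calls them deleted. In both lines the endogenous Eif2s1 gene, which encodes eIF2α, had been ablated by CRISPR-Cas9 and replaced by a myc-tagged Eif2s1 transgene under a PGK promoter. S51 cells carried the wild-type transgene, and S51A cells carried a form whose serine, the target of the stress kinases, is an alanine. S51A cells therefore cannot start the integrated stress response (ISR) through this site, the pathway in which phosphorylated eIF2α lowers translation and favours a few mRNAs such as Atf4. Each line received either DMSO as vehicle or the proteasome inhibitor bortezomib at 100 nM, for 4.5 h according to the labels and slightly less elsewhere in the text of the study. There were 4 total RNA libraries in each of the 4 groups and 4 RPF libraries in each group except S51 vehicle, which had 3. Both lines were grown from single cells, and the study says that it shows pooled clones of each genotype. The labels do not name the clone behind a library, and genotype and clone cannot be told apart. Nothing in the labels says that the replicates were separate cultures. The study calls them technical replicates in its results and independent biological replicates in legends. The p-values therefore measure the spread between these libraries, which may be technical.

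RAS proteins switch on a chain of kinases, RAF, MEK and ERK, and active ERK induces the genes that shut the chain down again. Dual-specificity phosphatases remove the phosphates that activate ERK, JNK or p38, and Sprouty proteins act higher up, between the receptors and RAF. In keratinocytes mutated Hras is a classic driver of squamous tumours, and the level of these feedback genes is widely used as a readout of ERK output.

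Totals on genes ran from 1038826 to 4902237 counts per RPF library and from 18758668 to 22994713 per total RNA library, and the S51 bortezomib RPF libraries were the shallowest by median (1564487.5 counts). Levels below are CPM, the counts of a gene relative to the TMM-scaled total of its library. In total RNA all 7 keratinocyte markers were above 1 CPM in every group and summed to between 13400 and 20300 CPM, while the fibroblast, endothelial, immune and melanocyte lists summed to at most 7.37 CPM in any library, with 0 to 4 markers of a list at 0 throughout a group. The keratinocyte sum itself was lowest in S51 vehicle and highest in S51A bortezomib. Trp63, a basal-cell transcription factor, was lower with bortezomib (RNA fell by 0.92 in S51 and 1.04 in S51A, RPF by 1.33 and 1.04 on the log2 scale). Krt5 RNA rose in S51 (log2 fold change 0.64), and Itga6, Sfn and Cdh1 RNA were higher in S51A under vehicle (log2 differences 0.76, 0.75 and 0.68), all called by the rule below. The part of these markers in the results was not tested. Eif2s1 RNA averaged between 287 and 310 CPM in the 4 groups, but S51A exceeded S51 in its RPF under vehicle (log2 difference 0.73, edgeR, adjusted p = 0.00234). Here and below edgeR stands for the quasi-likelihood test of that package, and p-values were adjusted by Benjamini and Hochberg's method over all genes tested. Atf4 RPF rose with bortezomib in S51 (189 ± 20.1 CPM, SD, n = 3, to 520 ± 16.3, n = 4) and averaged 126 and 132 CPM in S51A (edgeR, log2 difference between the responses 1.40, adjusted p = 4.15e-05). In a bulk library fewer cells with a transcript and less of it per cell cannot be told apart. Calls required both a fold above 1.5 and an adjusted p under 0.05.

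The 250 bases before the transcription start are shown for the 4 members whose RNA fell with bortezomib in both genotypes, and for Dusp1, whose RPF rose in S51. They were taken from RefSeq on GRCm38.p6 (mm10), read 5′ to 3′ on the strand of the gene, and RefSeq entries were at hand for 6 of the 10 members. Capitals mark every match on either strand to the CArG box of serum response factor, to the cyclic AMP response element TGACGTCA, to the AP-1 element TGANTCA or to the ETS core CCGGAA, and no match overlapped a match to another of these motifs. The windows are chr19:53528895-53529144 (plus strand) for Dusp5, chr10:99262981-99263230 (plus) for Dusp6, chr3:37639697-37639946 (plus) for Spry1, chr14:105896820-105897069 (minus) for Spry2 and chr17:26508473-26508722 (minus) for Dusp1.
Dusp5: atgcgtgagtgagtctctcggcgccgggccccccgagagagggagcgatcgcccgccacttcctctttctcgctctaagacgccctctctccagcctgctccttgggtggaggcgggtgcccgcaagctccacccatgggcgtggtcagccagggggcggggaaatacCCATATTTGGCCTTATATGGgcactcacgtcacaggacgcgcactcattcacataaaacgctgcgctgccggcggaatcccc
Dusp6: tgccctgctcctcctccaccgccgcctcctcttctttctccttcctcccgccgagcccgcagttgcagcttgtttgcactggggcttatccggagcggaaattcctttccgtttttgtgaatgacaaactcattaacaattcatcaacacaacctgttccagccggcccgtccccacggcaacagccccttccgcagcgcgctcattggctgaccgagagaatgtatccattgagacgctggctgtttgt
Spry1: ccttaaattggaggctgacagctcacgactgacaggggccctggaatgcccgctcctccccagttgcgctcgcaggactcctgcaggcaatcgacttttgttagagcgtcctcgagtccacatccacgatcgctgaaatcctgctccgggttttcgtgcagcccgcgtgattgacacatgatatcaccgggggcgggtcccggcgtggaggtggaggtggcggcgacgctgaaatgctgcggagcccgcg
Spry2: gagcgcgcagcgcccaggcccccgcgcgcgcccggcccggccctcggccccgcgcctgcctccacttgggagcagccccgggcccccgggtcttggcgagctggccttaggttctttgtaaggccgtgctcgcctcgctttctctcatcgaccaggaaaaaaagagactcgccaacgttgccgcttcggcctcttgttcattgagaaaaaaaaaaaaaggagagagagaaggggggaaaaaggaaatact
Dusp1: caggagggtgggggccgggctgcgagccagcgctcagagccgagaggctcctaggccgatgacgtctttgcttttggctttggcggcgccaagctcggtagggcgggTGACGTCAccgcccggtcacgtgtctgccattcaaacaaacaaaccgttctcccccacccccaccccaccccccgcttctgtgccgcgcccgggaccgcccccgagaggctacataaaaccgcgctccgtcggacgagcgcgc
Only the Dusp5 window held CArG boxes, with 2 that abut each other and start 82 and 72 bases before the transcription start. Among all 32851 RefSeq windows of this length 1.47% held a CArG box. The Dusp1 window held 1 TGACGTCA, which starts 143 bases before the start, and 1.55% of all windows held one. The windows of Dusp6, Spry1 and Spry2 held none of the 4 motifs, of which TGANTCA was in 6.75% and CCGGAA in 12% of all windows. The 4 falling genes thus shared none of these letters in this window, which says nothing about binding elsewhere.

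Ribosome occupancy of the members spanned a wide range already under vehicle. Per kilobase of coding sequence, the S51 vehicle libraries gave mean RPF levels of 124 CPM for Hras, 108 for Dusp6, 62.9 for Dusp5 and 32.6 for Etv4. Dusp1 (7.36), Spry2 (7.05) and Spry1 (6.63) followed, and Dusp4 was at 1.01. Hras (110 to 137 over libraries) and Dusp6 (99.5 to 127) overlapped, as did Dusp1 (6.31 to 8.34), Spry2 (6.3 to 8.22) and Spry1 (3.44 to 8.27). Dusp5 (53.4 to 75.3) and Etv4 (25.2 to 44.1) each stood apart from their neighbours in this order. Map3k8 had no RPF count in any S51 vehicle library. Spry4 had 1 RPF count in all 15 libraries together and at most 4 counts in any of the 16 total RNA libraries, so nothing more can be said of it. For RPF 7 members passed the filter on low counts (not Dusp4, Spry1 or Spry4), and for total RNA all but Spry4 did. Map3k8 passed through its S51A libraries in both, since its RNA reached 10 counts in only 2 of 8 S51 libraries. In RPF it passed through S51A bortezomib, as its S51A vehicle libraries held at most 8 counts. Spry2 RPF passed through vehicle libraries alone, as its bortezomib libraries held at most 6 counts.

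**Figure D1:**
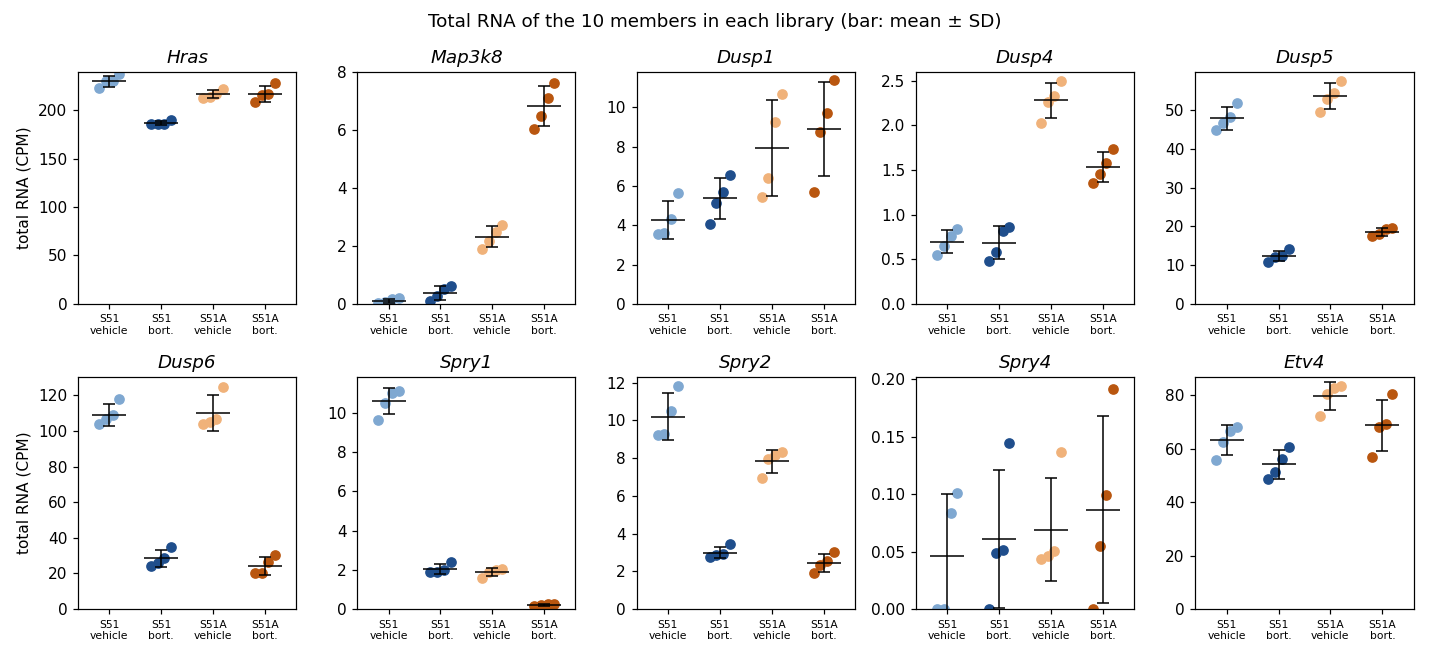
Total RNA of the 10 members, in CPM on a linear axis from 0, in each library (points, 4 per group) with the group mean and SD (bars). Dusp5, Dusp6, Spry1 and Spry2 are lower in every bortezomib library than in any vehicle library of the same genotype, and Map3k8 is at 1.89 CPM or more in every S51A library and at 0.632 or less in every S51 library.

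The question put to each genotype was how ribosome occupancy and RNA changed with bortezomib. In both genotypes the transcripts of Dusp5, Dusp6, Spry1 and Spry2 fell to a fraction of their vehicle level, Map3k8 RNA rose, and the RNA of Etv4, Hras and Dusp1 stayed under the fold set for a call. In S51, 6 of the 7 members tested in RPF were called (1 higher, 5 lower), against 18.6% of all genes tested, and 5 of 9 in total RNA (1 higher, 4 lower), against 15.3%. In S51A, 3 of 7 were called in RPF, all lower, against 10.9%, and 5 of 9 in total RNA (1 higher, 4 lower), against 13.1%. The RPF calls of both genotypes include Spry2, which passed the filter through vehicle libraries alone, so that its test favoured a fall. The median log2 fold change of the members tested in total RNA was -0.30 in S51 and -0.57 in S51A, and that of all genes tested was -0.01 in each.

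Dusp5 encodes a nuclear phosphatase specific to ERK. Its RPF in S51 was 69.1, 87, and 61.7 CPM in the vehicle libraries and 9.46, 14.3, 15.1 and 22.4 CPM with bortezomib. In S51A it was 76.2, 69.3, 56.9 and 57 CPM with vehicle and 24.2, 19, 19.8 and 19 CPM with bortezomib. In each genotype every bortezomib library lay below every vehicle library. Dusp5 RPF fell by 2.19 on the log2 scale in S51 (SE 0.196, edgeR, adjusted p = 2e-08) and by 1.64 in S51A (SE 0.167, adjusted p = 2.4e-07). The RNA moved alike, from 47.9 ± 2.97 to 12.4 ± 1.30 CPM in S51 and from 53.6 ± 3.34 to 18.6 ± 1.03 in S51A (SD, n = 4 each), and it fell by 1.95 and 1.52 on the log2 scale (SE 0.0702 and 0.066, edgeR, adjusted p = 3.6e-17 and 1.67e-15). The RNA response was larger in S51 by a log2 difference of -0.43 (SE 0.0975, edgeR, adjusted p = 0.0027), which is under the fold set for a call.

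Dusp6 encodes the cytoplasmic phosphatase specific to ERK. Its RPF in S51 was 114, 145 and 114 CPM with vehicle and 42.2, 33.5, 39.3 and 49.9 CPM with bortezomib. In S51A the values were 127, 114, 92.5 and 103 CPM with vehicle and 20.9, 23.4, 17.2 and 31.7 CPM with bortezomib. The groups did not overlap in either genotype, and under bortezomib every S51A library lay below every S51 library. Dusp6 RPF fell by 1.57 in S51 (SE 0.161, edgeR, adjusted p = 1.76e-07) and by 2.21 in S51A (SE 0.156, adjusted p = 1.08e-09) on the log2 scale. The larger fall in S51A, a response difference of 0.64 (SE 0.228), did not pass the threshold (edgeR, adjusted p = 0.158), though it was called without S51 vehicle replicate 2 (0.76), and the direct comparison under bortezomib was called, with RPF lower in S51A by a log2 difference of -0.82 (SE 0.18, edgeR, adjusted p = 0.00134). Dusp6 RNA fell by 1.95 in S51 and by 2.18 in S51A on the log2 scale (SE 0.101 and 0.103, edgeR, adjusted p = 3.52e-14 and 7.74e-15), from 109 ± 6.10 to 28.4 ± 4.82 CPM and from 110 ± 10.2 to 24.3 ± 4.98 CPM (SD, n = 4 each).

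**Figure D2:**
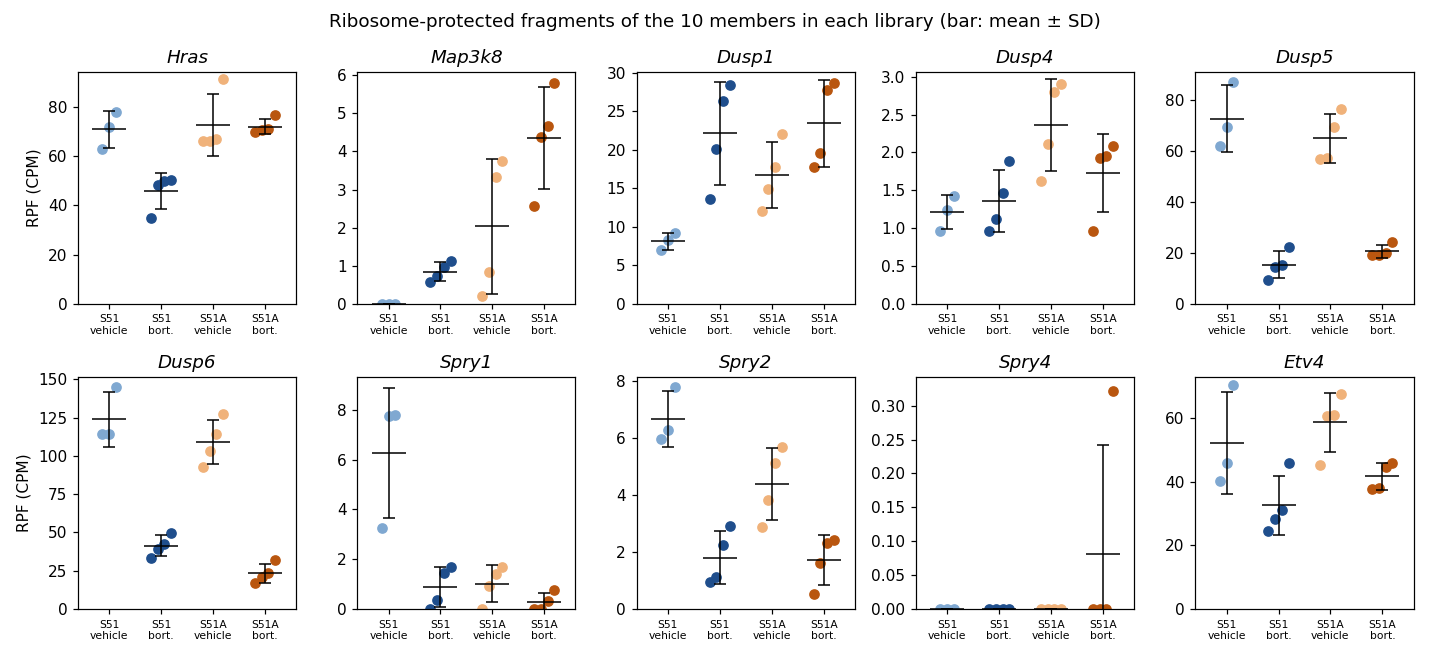
RPF of the 10 members, in CPM on a linear axis from 0, in each library (points, 3 for S51 vehicle and 4 for the other groups) with the group mean and SD (bars). Dusp5 and Dusp6 fall with bortezomib in both genotypes, Dusp1 is lowest in S51 vehicle, and Hras is lowest in S51 bortezomib.

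Spry1 and Spry2 encode Sprouty proteins, which restrain signalling from receptor tyrosine kinases to RAS and RAF. Spry1 RNA was 9.66, 11, 10.5 and 11.1 CPM in S51 vehicle and 1.87, 1.88, 1.99 and 2.4 CPM in S51 bortezomib. In S51A it was 1.6, 1.98, 1.91 and 2.02 CPM with vehicle and 0.248, 0.141, 0.218 and 0.24 CPM with bortezomib. Vehicle-treated S51A cells were thus at the level of bortezomib-treated S51 cells, and bortezomib lowered each genotype from its own level without overlap. Spry1 RNA fell by 2.38 on the log2 scale in S51 (SE 0.113, edgeR, adjusted p = 7.21e-15) and by 3.11 in S51A (SE 0.241, adjusted p = 8.04e-11), where the bortezomib libraries held 17 counts in all. From counts alone the S51A fall was 8.88-fold (exact 95% interval 5.38 to 15.6, which covers counting error only). The responses differed by 0.74 (SE 0.303), not past the threshold (edgeR, adjusted p = 0.117). Spry1 RPF was too sparse for the main test, with 51 counts under vehicle and 6 under bortezomib in all S51 libraries together, and 17 and 3 counts in S51A. After scaling to library size these counts give a level 6.53-fold lower with bortezomib in S51 (exact 95% interval 2.80 to 18.6) and 3.85-fold lower in S51A (1.11 to 20.5), again for counting error only.

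Spry2 RNA averaged 10.2 ± 1.23 CPM in S51 vehicle and 2.99 ± 0.301 in S51 bortezomib, and 7.84 ± 0.604 in S51A vehicle and 2.45 ± 0.467 in S51A bortezomib (SD, n = 4 each). It fell by 1.77 on the log2 scale in S51 (SE 0.12, edgeR, adjusted p = 6.07e-12) and by 1.67 in S51A (SE 0.129, adjusted p = 8.03e-11), with no overlap of the groups. Its RPF rested on 1 to 27 counts per library. Those counts gave 7.79, 6.28 and 5.97 CPM in S51 vehicle against 2.91, 0.956, 1.13 and 2.24 with bortezomib, and 5.14, 5.7, 2.9 and 3.85 CPM in S51A vehicle against 1.61, 2.44, 0.52 and 2.32 with bortezomib. The RPF groups were apart in each genotype. Spry2 RPF fell by 1.89 in S51 (SE 0.415, edgeR, adjusted p = 0.00153) and by 1.33 in S51A (SE 0.374, adjusted p = 0.014) on the log2 scale. The S51A call was lost without S51A vehicle replicate 2 (log2 fold change -1.13). Since Spry2 RPF passed the filter through vehicle libraries alone, these RPF tests favoured a fall and are no support for one.

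Dusp1 encodes an immediate early phosphatase of p38, JNK and ERK and went the other way. Its RPF in S51 was 9.21, 8.22 and 6.97 CPM with vehicle and 28.4, 20.1, 13.6 and 26.3 CPM with bortezomib. In S51A it was 22, 17.7, 14.9 and 12 CPM with vehicle and 27.7, 19.5, 17.7 and 28.6 CPM with bortezomib. The S51 groups were apart and the S51A groups overlapped. In S51 the RPF rose by a log2 fold change of 1.41 (SE 0.289, edgeR, adjusted p = 0.000817), and in S51A the log2 fold change was 0.55 (SE 0.219, adjusted p = 0.0797), called without S51A vehicle replicate 1 (0.68). The difference between these responses was 0.86 (SE 0.364), not past the threshold (edgeR, adjusted p = 0.245). Dusp1 RNA gave no called response, with 4.27 ± 0.975 CPM in S51 vehicle and 5.36 ± 1.04 in S51 bortezomib, and 7.95 ± 2.44 and 8.89 ± 2.41 CPM in S51A (SD, n = 4 each). The RNA log2 fold changes were 0.34 and 0.17 (edgeR, adjusted p = 0.2 and 0.477).

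Dusp4, a nuclear phosphatase of ERK and JNK, had 1 to 10 RPF counts per library and was not tested there in the main fit. Its RNA was 0.755, 0.65, 0.551 and 0.837 CPM in S51 vehicle and 0.857, 0.482, 0.583 and 0.819 CPM in S51 bortezomib, and these groups overlapped. In S51A it was 2.33, 2.03, 2.26 and 2.5 CPM with vehicle and 1.74, 1.46, 1.58 and 1.35 CPM with bortezomib, without overlap. The S51A log2 fold change of -0.57 passed the adjusted p (SE 0.168, edgeR, adjusted p = 0.00543) and missed the fold set for a call. It was called when TMM factors were left out (-0.69) and without any 1 of 3 libraries, S51A bortezomib replicates 1 and 3 and S51A vehicle replicate 2 (-0.64 to -0.59). In S51 the log2 fold change was -0.04 (SE 0.248, edgeR, adjusted p = 0.907), and the test of the difference between the responses gave 0.54 (SE 0.302, adjusted p = 0.217).

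Etv4 is an ETS transcription factor that acts downstream of ERK. Its RPF in S51 was 46.1, 70.6 and 40.3 CPM with vehicle and 31.3, 45.9, 28.4 and 24.6 CPM with bortezomib, and in S51A 60.7, 61, 67.6 and 45.4 CPM with vehicle and 46.1, 44.8, 38 and 37.9 CPM with bortezomib. The groups overlapped in both genotypes. In S51 the RPF fell by 0.71 on the log2 scale (SE 0.206, edgeR, adjusted p = 0.0127). In S51A the log2 fold change was -0.47 (SE 0.173, edgeR, adjusted p = 0.0562), and it was called without S51A vehicle replicate 4 (-0.59). The S51 call was lost without S51 vehicle replicate 2 (log2 fold change -0.47), S51 bortezomib replicate 3 (-0.64) or S51 bortezomib replicate 4 (-0.60). It was also lost when only the 2 groups compared were fitted (-0.72, edgeR, adjusted p = 0.0584). Etv4 RNA had a log2 fold change of -0.22 in each genotype (SE 0.0821 and 0.0797, edgeR, adjusted p = 0.0225 and 0.0242), past the adjusted p and under the fold.

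Map3k8, also called TPL2, is a kinase that activates MEK without RAF. Its RNA was 0.151, 0.186, 0.0459 and 0.0419 CPM in S51 vehicle (1 to 4 counts a library) and 0.504, 0.0964, 0.632 and 0.256 CPM in S51 bortezomib (2 to 13 counts). In S51A it was 2.74, 1.89, 2.16 and 2.5 CPM with vehicle and 6.05, 6.5, 7.64 and 7.12 CPM with bortezomib. The S51 groups overlapped, and the S51A groups did not. Map3k8 RNA rose by a log2 fold change of 1.55 in S51A (SE 0.167, edgeR, adjusted p = 2.44e-08) and of 1.79 in S51 (SE 0.559, adjusted p = 0.00788), where the call was lost without S51 bortezomib replicate 3 (log2 fold change 1.40). Its RPF held 0 counts under vehicle and 6 under bortezomib in all S51 libraries together, and 21 and 41 counts in S51A. In S51A these counts give a level 2.87-fold higher with bortezomib (exact 95% interval 1.66 to 5.12, counting error only), while the test over libraries gave a log2 fold change of 1.44 (SE 0.519, edgeR, adjusted p = 0.0552). With 1 of the 15 libraries left out, Map3k8 RPF passed the filter in 8 fits, and 4 of these made it a call. They left out S51 vehicle replicate 2 or 3, or S51A vehicle replicate 1 or 3 (log2 fold changes from 1.44 to 1.90). Since Map3k8 RPF passed the filter through S51A bortezomib, this test and these fits favoured a rise and are no support for one.

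Hras encodes the small GTPase at the head of the chain, and its counts do not separate the G12V allele from the wild type. Its RPF was 77.9, 62.8 and 71.7 CPM in S51 vehicle and 50.2, 49.7, 48.4 and 34.7 CPM in S51 bortezomib. In S51A it was 66.8, 66.1, 91.3 and 66.1 CPM with vehicle and 69.6, 70.7, 76.5 and 70.8 CPM with bortezomib. All S51 bortezomib libraries lay below all libraries of the other groups. Hras RPF fell by 0.64 on the log2 scale in S51 (SE 0.144, edgeR, adjusted p = 0.00182), and in S51A the log2 fold change was -0.0061 (SE 0.123, adjusted p = 0.984). The S51 fold slipped under 1.5 without S51 vehicle replicate 1 (log2 fold change -0.57) or S51 bortezomib replicate 4 (-0.53). The response difference of -0.64 (SE 0.19) missed the threshold (edgeR, adjusted p = 0.0771), and DESeq2 called it (log2 difference -0.65, adjusted p = 0.0412). So did edgeR without S51 vehicle replicate 2 (-0.72) or S51A vehicle replicate 3 (-0.76). In total RNA Hras averaged 230 ± 5.65 CPM under vehicle and 187 ± 1.90 under bortezomib in S51, and 217 ± 4.18 and 217 ± 8.06 CPM in S51A (SD, n = 4 each). The RNA log2 fold change in S51 was -0.30 (SE 0.0323, edgeR, adjusted p = 2.09e-08) and the response difference was -0.30 (SE 0.0456, adjusted p = 5.38e-05), both under the fold set for a call.

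**Figure D3:**
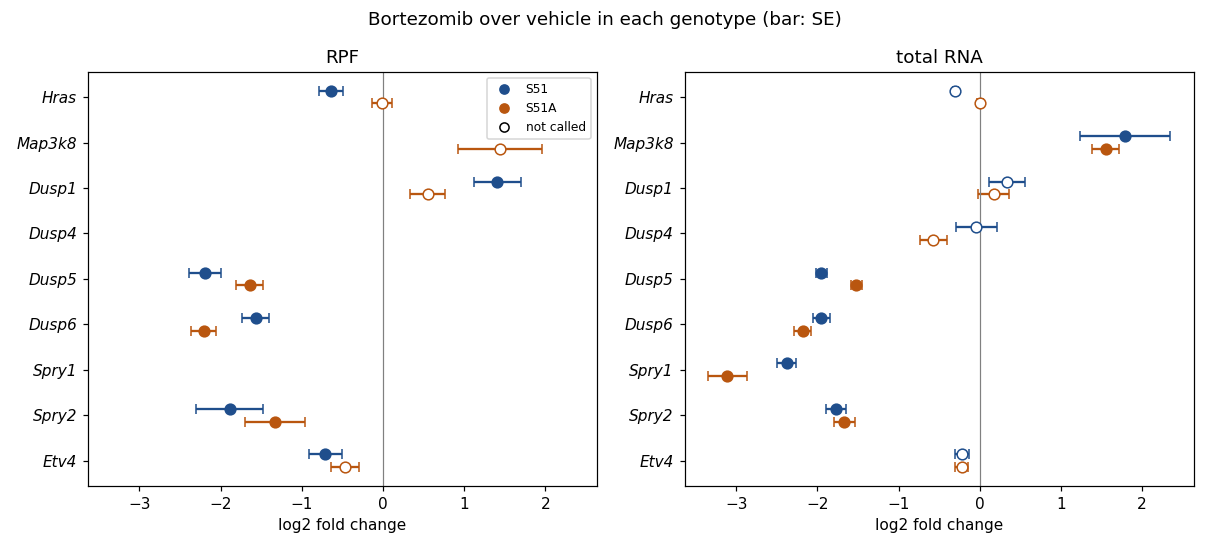
Log2 fold change of bortezomib over vehicle in S51 (blue) and S51A (orange) for RPF and total RNA, with SE. Filled points were called. Dusp5, Dusp6 and Spry2 fell in both readouts and both genotypes, and Dusp1 RPF rose in S51 alone among the calls (the difference between genotypes did not pass its test). Dusp4 and Spry1 RPF were not tested in the main fit, and Map3k8 RPF in S51 is left out because all its vehicle libraries are at 0. Spry2 RPF passed the filter through vehicle libraries alone, so its test favoured a fall.

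Translation efficiency (TE, the change of RPF beyond that of total RNA) was tested for 7 members in a model of all 31 libraries. No member was called in S51, where 5.28% of all genes tested were, nor in S51A, where 0.987% were. At an unadjusted p below 0.05 there were 3 members in S51 and 0 in S51A, and DESeq2 called 0 in each. The share of all genes at that p was not taken. In S51 the TE log2 fold changes were -0.22 for Dusp5 (SE 0.212), 0.40 for Dusp6 (SE 0.216) and -0.15 for Spry2 (SE 0.458), against RPF falls of at least 1.57 on the log2 scale. In S51A they were -0.11 for Dusp5 (SE 0.173), -0.03 for Dusp6 (SE 0.219) and 0.32 for Spry2 (SE 0.422). Ribosome occupancy of these 3 feedback genes thus fell with no TE call in either genotype, which does not show that RPF and RNA fell alike. Dusp1 had the largest TE value in S51 among the members with RPF counts in every group, at 1.07 (SE 0.441, edgeR, adjusted p = 0.129). By the steps of the study, in which a called RPF change and a difference of the log2 fold changes above 1.5-fold suffice, Dusp1 was a call in S51, at 1.08. It was also called with the RPF and total RNA of the same group and number joined as a replicate block (1.18, SE 0.258, edgeR, adjusted p = 0.00535). The TE log2 fold change of Hras in S51 was -0.35 (SE 0.128, edgeR, adjusted p = 0.0764) and that of Etv4 was -0.48 (SE 0.233, adjusted p = 0.215).

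Whether S51 and S51A responded differently was tested directly, and no member was called. In RPF 0 of 7 were called against 1.86% of all genes, with 3 at an unadjusted p below 0.05 and 1, Hras, by DESeq2. In total RNA 0 of 9 were called against 2.09%, with 3 at an unadjusted p below 0.05 and 0 by DESeq2. In TE 0 of 7 were called against 1.29%, with 1 at an unadjusted p below 0.05 and 0 by DESeq2. The shares given are for the main rule, and those of all genes at the unadjusted p or by DESeq2 were not taken. No excess of members can therefore be read from these counts. A missed threshold does not show that the genotypes responded alike. For the genes that fell, the differences in total RNA were -0.43 for Dusp5, 0.22 for Dusp6 (SE 0.145), 0.74 for Spry1 and -0.10 for Spry2 (SE 0.185), of both signs and each smaller than the fall itself in either genotype. The RNA response of the ISR target Ddit3 differed by 1.07 (SE 0.178, edgeR, adjusted p = 0.000142) and its RPF response by 2.42 (SE 0.487, adjusted p = 0.00735).

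The lines were next compared with each other under the same treatment. These comparisons share the S51 and S51A libraries used above. Under vehicle S51A cells held more Map3k8, Dusp4 and Dusp1 and less Spry1 than S51 cells, and no other member was called. In RPF 2 of 7 members were called, both higher in S51A, against 15.8% of all genes, and in total RNA 4 of 9 (3 higher, 1 lower), against 17.5%. Under bortezomib 3 of 7 were called in RPF (2 higher, 1 lower), against 17.7%, and 5 of 9 in total RNA (4 higher, 1 lower), against 20.0%. Since Map3k8 passed the filter through S51A alone, it had to differ between the lines. Without it, the calls under vehicle were 1 of 6 in RPF and 3 of 8 in total RNA, and under bortezomib 2 of 6 and 4 of 8. The median log2 difference in total RNA of these 8 was 0.09 under vehicle and 0.28 under bortezomib, against 0.00 and 0.01 over all genes tested.

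Map3k8 RNA held 201 counts in the S51A and 9 in the S51 vehicle libraries, and 548 and 30 with bortezomib. These counts give a ratio of 22.5-fold under vehicle (exact 95% interval 11.6 to 50, counting error only) and 18.3-fold under bortezomib (12.7 to 27.4). Its RPF under vehicle was 3.74, 0.845, 3.32 and 0.203 CPM in S51A and 0 in all S51 libraries, and its 21 counts stand 4.39-fold above a floor of 3 counts over the S51 group. The exact 95% interval of this ratio has its lower limit at 3.26-fold and no upper limit. Under bortezomib it was 2.58, 4.39, 4.68 and 5.8 CPM in S51A and 0.728, 0.956, 1.13 and 0.56 CPM in S51, and the counts give 4.84-fold (exact 95% interval 2.04 to 14). By the test over libraries it was no longer called without S51 bortezomib replicate 4 (log2 difference 2.07). Nfkb1 and Tnip2 encode the partners that hold the Map3k8 kinase in a complex. Tnip2 RNA was also higher in S51A under vehicle (log2 difference 0.70, edgeR, adjusted p = 6.04e-06) and rose with bortezomib in S51 (log2 fold change 0.80, adjusted p = 8.68e-07). Nfkb1 RNA had a log2 difference of 0.30 under vehicle (edgeR, adjusted p = 6.54e-07, under the fold), and Nfkb1 RPF was higher in S51A under bortezomib (0.68, adjusted p = 5.89e-05).

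Spry1 RNA stood the other way, lower in every S51A library than in any S51 library under the same treatment. The log2 difference was -2.49 under vehicle (SE 0.113, edgeR, adjusted p = 2.52e-15) and -3.23 under bortezomib (SE 0.239, adjusted p = 1.97e-11). Spry1 RPF under vehicle was 7.79, 7.74 and 3.24 CPM in S51 and 0.935, 1.69, 0 and 1.42 CPM in S51A. These groups did not overlap, and the counts give a level 4.79-fold lower in S51A (exact 95% interval 2.72 to 8.84). Spry2 RNA was lower in S51A under vehicle by a log2 difference of -0.38 (SE 0.102, edgeR, adjusted p = 0.00249), under the fold set for a call.

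Dusp4 RNA was the higher in S51A, by a log2 difference of 1.70 under vehicle (SE 0.193, edgeR, adjusted p = 4.38e-08) and 1.16 under bortezomib (SE 0.215, adjusted p = 4.73e-05). Its RPF under vehicle, 1.42, 0.967 and 1.24 CPM in S51 and 2.8, 2.11, 2.9 and 1.62 CPM in S51A, did not overlap either, although the counting interval of the ratio (1.77-fold, 0.864 to 3.89) includes no difference. Dusp1 RNA was higher in S51A by 0.91 under vehicle (SE 0.21, edgeR, adjusted p = 0.000585) and by 0.74 under bortezomib (SE 0.203, adjusted p = 0.00274), with overlap of the groups. Dusp1 RPF was higher in S51A under vehicle by 1.01 (SE 0.276, edgeR, adjusted p = 0.00859), a call lost without S51 vehicle replicate 3 (log2 difference 0.84), and under bortezomib the log2 difference was 0.15 (SE 0.234, adjusted p = 0.67).

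For the ERK phosphatases that fell, neither Dusp5 nor Dusp6 was called between the lines under vehicle. The RNA log2 differences were 0.16 for Dusp5 (SE 0.0598, edgeR, adjusted p = 0.0203, under the fold) and 0.008 for Dusp6 (SE 0.0897, adjusted p = 0.944). Under bortezomib Dusp5 RNA was higher in S51A (log2 difference 0.59, SE 0.077, edgeR, adjusted p = 3.18e-07), just past the fold set for a call and under it with DESeq2 or RLE factors (0.58 each). It also slipped under the fold without S51 bortezomib replicate 1, S51A bortezomib replicate 1 or S51A bortezomib replicate 2, at log2 differences from 0.53 to 0.58. Hras RPF under bortezomib was higher in S51A (log2 difference 0.66, SE 0.138, edgeR, adjusted p = 0.000953), again slipping under the fold without S51 bortezomib replicate 4 (0.54). Etv4 RNA was higher in S51A by 0.34 under each treatment (SE 0.0797 and 0.0821, edgeR, adjusted p = 0.000761 and 0.000773), under the fold. TE differed between the lines for 0 of 7 members under vehicle, against 0.0849% of all genes, and for 0 of 7 under bortezomib, against 3.08%. At an unadjusted p below 0.05 there were 1 and 2 members, with no share of all genes taken at that p, and DESeq2 called 0 in each. With the replicate block of RPF and total RNA, Dusp6 TE was called under bortezomib (log2 difference -0.63, SE 0.162, edgeR, adjusted p = 0.0224).

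**Figure D4:**
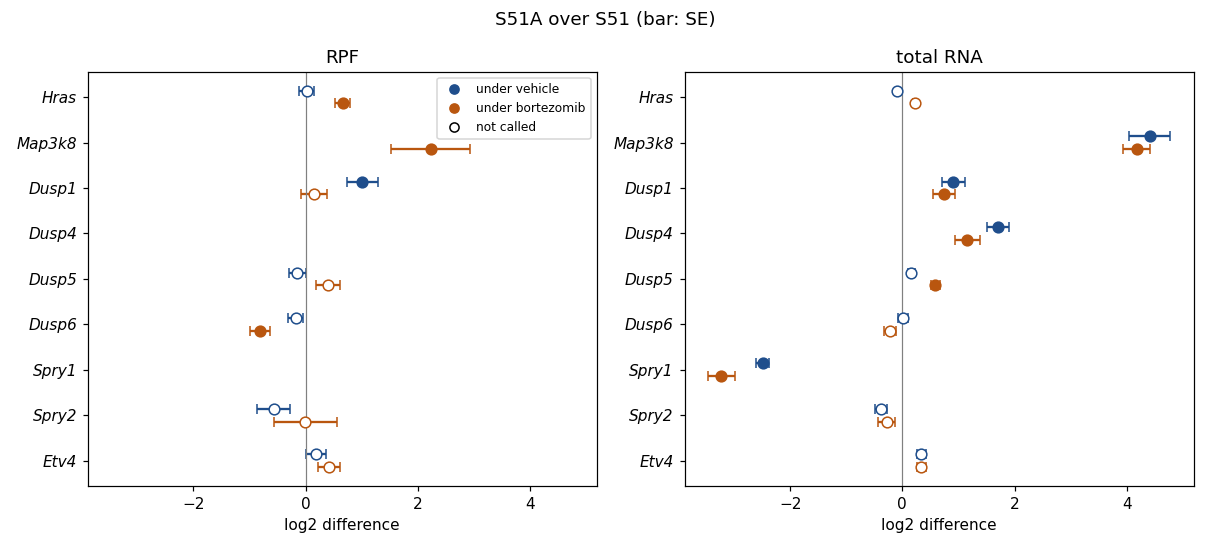
Log2 difference of S51A over S51 under vehicle (blue) and under bortezomib (orange) for RPF and total RNA, with SE. Filled points were called. Map3k8 and Spry1 RNA lie farthest from 0, in opposite directions, and Hras, Dusp5, Dusp6, Spry2 and Etv4 lie within 1 log2 unit of it. Map3k8 RPF under vehicle is left out because all S51 vehicle libraries are at 0.

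Over the 16 total RNA libraries the log2 CPM of Dusp5, Dusp6 and Spry2 followed each other with Pearson's r between 0.90 and 0.97, a value that includes the differences between the 4 groups. By the same measure the genes most like Dusp6 were Bnc1 (r = 0.9861), Errfi1 (0.9824) and Myc (0.9815). Those most like Etv4 were Antxr2 (0.939), Snx9 (0.9242) and Trim16 (0.9208). These correlations describe 16 libraries in 4 groups and carry no test.

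The wider pathway was described from gene lists. Calls over all genes also leaned lower with bortezomib, with 698 higher and 1059 lower in S51 RPF, 396 and 631 in S51A RPF, 667 and 1123 in S51 RNA and 532 and 1003 in S51A RNA. The feedback genes outside the 10 form a list of 22 other negative regulators. With bortezomib 8 of 17 were called in RPF in S51 (1 higher, 7 lower) and 3 of 17 in S51A (all lower), and in total RNA 7 of 22 (1 higher, 6 lower) and 5 of 22 (all lower). Their shares called were 47.1% and 17.6% in RPF, against 18.6% and 10.9% of all genes, and 31.8% and 22.7% in total RNA, against 15.3% and 13.1%. The medians were -0.25 and -0.15 in RPF, against 0.00 and -0.01 over all genes tested. In total RNA they were -0.04 and -0.11, against -0.01 in each genotype. Lrig1, which restrains receptors of the EGF family, fell in RPF by 1.59 in S51 and by 1.09 in S51A on the log2 scale (edgeR, adjusted p = 1.05e-05 and 0.000141). Errfi1, a feedback inhibitor of the EGF receptor, fell by 1.07 and 0.95 (edgeR, adjusted p = 2.65e-05 and 3e-05). Dusp7, another cytoplasmic ERK phosphatase, fell by 1.38 in S51 and 0.68 in S51A (edgeR, adjusted p = 5.47e-09 and 4.97e-05), and its responses differed by -0.71 (adjusted p = 0.0144). Spred1, which recruits neurofibromin to RAS, fell in RPF by 1.08 in S51 (edgeR, adjusted p = 0.0112). Dusp16, a JNK phosphatase, rose in RPF in S51 (log2 fold change 0.84, edgeR, adjusted p = 0.0232), and Dusp2 RNA rose there too (1.13, adjusted p = 0.00745) on 4 to 23 counts per library. Under vehicle 3 of 17 (17.6%, against 15.8% of all genes) were called in RPF, all higher in S51A, namely Dusp16 (1.34), Dusp10 (0.83) and Dusp14 (0.59). In total RNA 6 of 22 were called (5 higher, 1 lower), or 27.3% against 17.5% of all genes (1316 higher, 737 lower). They were led by Il17rd (2.39), Spred3 (1.51) and Dusp16 (0.99), with Spry3 lower (-2.83). Il17rd had 3 to 7 counts per S51 library and Spry3 1 to 3 per S51A library. Neither could pass the filter on low counts through those libraries, so both had to differ between the lines. The share called includes both, and their calls are no support for a difference.

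Genes that ERK is known to induce formed a list of 26. In RPF 9 of 22 were called in S51 (2 higher, 7 lower) and 7 of 22 in S51A (all lower), and in total RNA 7 of 24 (1 higher, 6 lower) and 7 of 24 (all lower). Their shares called were 40.9% and 31.8% in RPF, against 18.6% and 10.9% of all genes, and 29.2% in total RNA of each genotype, against 15.3% and 13.1%. The medians were -0.16 and -0.52 in RPF and -0.34 and -0.47 in total RNA. Myc, a driver of growth, fell by 2.11 in S51 and 2.53 in S51A in RPF on the log2 scale (edgeR, adjusted p = 2.45e-10 and 2.38e-11), and its RNA fell by 2.10 and 2.43 (adjusted p = 8.22e-18 and 2.02e-18). In S51 the RPF of Srf, the factor that binds CArG boxes, fell by 1.30 and that of its partner Elk3 by 1.22 (edgeR, adjusted p = 0.000207 and 5.03e-06). Areg, a ligand of the EGF receptor, and Ier3 rose in S51 RPF by log2 fold changes of 1.29 and 1.05 (edgeR, adjusted p = 0.000277 and 8.25e-05). Egr1 RNA fell by 1.52 in S51 (edgeR, adjusted p = 0.000413) on 4 to 21 counts per library. Hbegf, another ligand of the EGF receptor, and Ier2 fell in S51A RPF by 1.58 and 2.12 (edgeR, adjusted p = 8.41e-06 and 1.2e-07), and Ier2 fell by 1.07 in S51 RPF (adjusted p = 0.00021). In the difference of the RNA responses (S51 minus S51A) 6 of 24 were called, all positive, against 2.09% of all genes (157 positive, 88 negative), among them Ier2 (1.51, edgeR, adjusted p = 1.18e-07) and Hbegf (0.64, adjusted p = 0.00182). Between the lines under vehicle 4 of 22 were called in RPF (2 higher and 2 lower in S51A), or 18.2% against 15.8% of all genes. In total RNA 6 of 24 were called (5 higher, 1 lower), or 25% against 17.5%. Among these, Maff RNA was higher in S51A by 1.35 and Fosb RNA by 1.07, and Etv5 RNA was lower by a log2 difference of -0.60 (edgeR, adjusted p = 4.93e-08, 0.000449 and 8.14e-05).

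**Figure D5:**
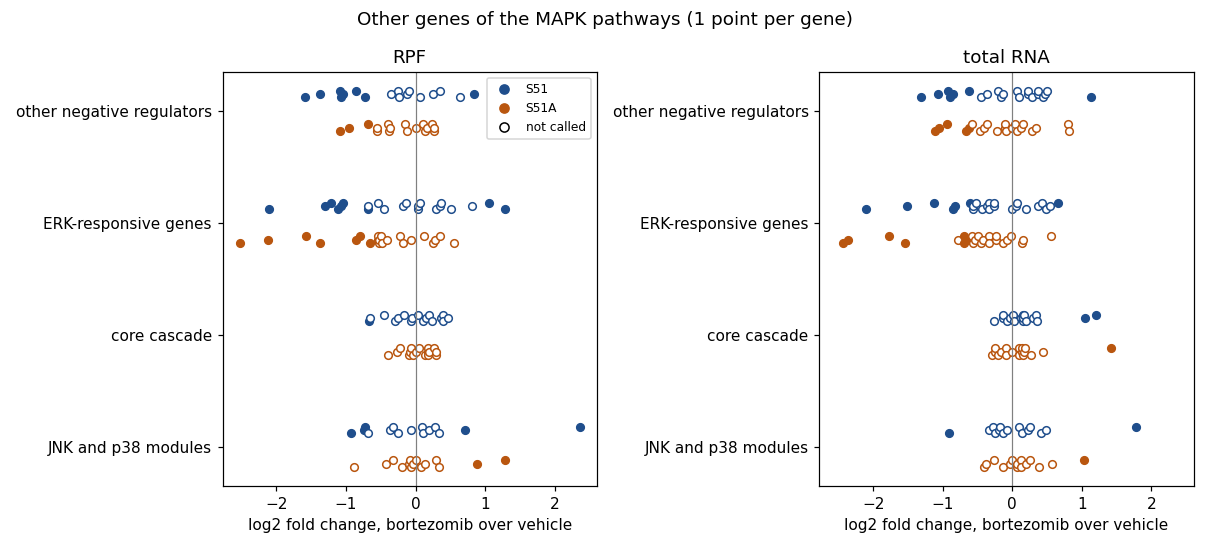
Log2 fold change of bortezomib over vehicle for each tested gene of 4 lists (1 point per gene, filled where called) in S51 (blue) and S51A (orange), for RPF and total RNA. Called points lie mostly below 0 for the other negative regulators and the ERK-responsive genes, as more of the calls over all genes also do, and few points of the core cascade are called.

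The cascade itself was described from 18 genes, from the adaptors to ERK. In total RNA 2 of 18 were called in S51, Ksr1 and Gab1 (11.1%, against 15.3% of all genes), and 1 in S51A, Ksr1 (5.56%, against 13.1%). The scaffold Ksr1 rose by log2 fold changes of 1.20 in S51 and 1.42 in S51A (edgeR, adjusted p = 2.47e-06 and 1.62e-07), from 1.69 ± 0.565 and 1.72 ± 0.106 CPM under vehicle to 3.89 ± 0.559 and 4.61 ± 0.546 (SD, n = 4 each). The adaptor Gab1 rose in S51 by 1.04 (edgeR, adjusted p = 5.96e-09) and under vehicle stood higher in S51A, by 1.85 in RNA and 1.88 in RPF (adjusted p = 3.13e-14 and 5.08e-05). In the parallel JNK and p38 modules 5 of 15 were called in S51 RPF (2 higher, 3 lower) and 2 of 15 in S51A (both higher), or 33.3% and 13.3% against 18.6% and 10.9% of all genes. In their total RNA 2 of 15 were called in S51 (1 higher, 1 lower) and 1 of 15 in S51A (higher). These shares, 13.3% and 6.67%, were below the 15.3% and 13.1% of all genes. Gadd45a, a stress-induced activator of p38 and JNK kinases, rose in S51 RPF by a log2 fold change of 2.36 (edgeR, adjusted p = 5.29e-07), from 10.1 ± 2.58 (n = 3) to 50.9 ± 11.6 CPM (n = 4, SD), with 10.4 ± 3.23 and 13.3 ± 4.12 CPM in S51A. Its responses differed by 2.01 (edgeR, adjusted p = 0.00365). Its relatives moved otherwise, with Gadd45b RPF lower in S51 (fell by 0.93, edgeR, adjusted p = 0.000364) and Gadd45g RPF higher in S51A (rose by 1.29, adjusted p = 4.13e-05). Map3k1 of the same list was also called lower in S51 RPF (log2 fold change -0.73, edgeR, adjusted p = 0.0112). Mapk9, which encodes a JNK, rose in RPF in S51 and S51A by 0.71 and 0.88 (edgeR, adjusted p = 0.00964 and 0.000909).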

How the data were processed

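Ribosome-protected fragments (RPF, 15 libraries) and total RNA (16 libraries) were sequenced from S51 and S51A cells. The authors deposited raw counts per gene, made, per the methods, by trimming with FastX, alignment to mm10 with bowtie2 and counting with plastid (featureCounts is named in the submitters' processing notes instead). RPF were counted in coding sequence without the codons near its ends, and column names say that rRNA was removed and duplicates marked, so RPF and RNA levels of a gene are not on one scale. A note in the record says that titles of the S51 bortezomib and S51A vehicle samples were exchanged, and columns were assigned by it. Counts were tested as deposited with edgeR 4.0.16 in R 4.3.3 (filterByExpr with a minimum of 10 counts, TMM, all 4 groups in 1 fit per readout). TE was the interaction of readout and group over 31 libraries. Counting intervals and the floor of 3 counts cover counting error only, at 95%. In simulated counts for the S51 response, 95% (RPF, 9375 genes), 100% (total RNA, 11625) and 91.5% (TE, 9341) of 200 genes changed 3-fold were recovered. Of the calls, 5.47%, 1.48% and 2.66% were false. Every simulated gene had the same dispersion and no smaller fold was tried. Recovery at the real spread of the members, or of changes near 1.5-fold, was therefore not tested. Alternatives were DESeq2 1.42.0, other scalings, filters and folds, a replicate block, only the groups compared, and each library left out. The 10 members, the gene lists and the rule for naming list genes (called genes, at most the 3 largest changes in each direction per list and comparison) were chosen with earlier results of these data known. The RPF responses of the core cascade list to bortezomib are not reported here.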

Additional observations from a re-analysis of the deposited data

Results flagged for a closer look

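In 57 groups of 4 libraries the highest or lowest value of a member was checked for a gap to the others above Dixon's 95% critical value, which chance exceeds in about 1 of 20 groups, and 4 values did. Hras RPF in S51 bortezomib replicate 4 was 34.7 CPM, with 48.4 to 50.2 in the others. Hras RPF in S51A vehicle replicate 3 was 91.3 CPM, with 66.1 to 66.8 in the others. Dusp5 RPF in S51A bortezomib replicate 1 was 24.2 CPM, with 19 to 19.8 in the others. Dusp6 RNA in S51A vehicle replicate 1 was 125 CPM, with 104 to 107 in the others. The cause of these gaps was not tested.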

How the results depend on the processing

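Of 347 alternative values for the 33 called member results, 330 kept direction and call, 17 kept direction and lost the call, and 0 reversed. Of the left-out libraries these hold only the lowest and highest value of each result, and taken singly 13 such omissions ended a call of a member and 14 made one. Counts include Map3k8. Counts of members called moved by over 1.5 times as follows, and beyond fewer genes being tested or another fold the cause was not tested. With at least 10 counts in every library, calls in total RNA were 3 in the S51 response, 3 in the S51A response, 2 between lines under vehicle and 3 under bortezomib, and in RPF 1 under vehicle. With only the groups compared, RPF under vehicle gave 1. With a fold above 2, calls under bortezomib were 1 in RPF and 3 in total RNA. With adjusted p alone, total RNA gave 8 of 9 under vehicle and 2 of 9 for the response difference, and TE gave 1 of 7 under bortezomib (Hras). DESeq2 gave 1 for the RPF response difference. Leaving out 1 library gave ranges of 2 to 5 (RPF, S51A response), 4 to 7 (RPF, S51 response), 1 to 2 (RPF, vehicle), 0 to 2 (RPF, response difference) and 0 to 1 (TE, S51 response: Etv4 without RPF S51 vehicle replicate 3, -0.68), and Dusp5 RPF under bortezomib was called without S51 bortezomib replicate 4 (0.63). By the study's steps TE gave 1 call in the S51 response (Dusp1), 1 under vehicle (Map3k8, whose S51 vehicle RPF is 0) and 1 under bortezomib (Dusp6). Deviations of same-numbered libraries of different groups correlated above 0.1 in 3 of 21 RPF pairs (r from -0.158 to 0.261, median 0.0325). They did so in 8 of 24 total RNA pairs (0.00213 to 0.191, median 0.0922), all of which were positive. The numbers were not taken to pair the groups, and a part shared by number was not tested. SEs and overlaps of groups in the main fits thus ignore any such pairing. A replicate block by number changed no member call in RPF or total RNA. RPF and total RNA of the same group and number, which the study drew from shared lysates, did so in 8 of 15 pairs (-0.056 to 0.346, median 0.113). With these joined as a replicate block, TE gave 1 call in the S51 response (Dusp1, 1.18, edgeR, adjusted p = 0.00535) and 1 under bortezomib (Dusp6, -0.63, adjusted p = 0.0224). Library sizes alone moved the median of all genes by -0.16 and -0.13 in the RNA responses of S51 and S51A and by 0.15 in the S51 TE response. Counts were too few for the main test of Dusp4, Spry1 and Spry4 in RPF and of Spry4 in total RNA. DESeq2 and edgeR without the filter did test Spry1 and Dusp4 RPF. Spry1 was called lower with bortezomib in S51 (DESeq2 -2.79, adjusted p = 0.00459, edgeR -2.70, adjusted p = 0.000652). It was also called lower in S51A under vehicle (DESeq2 -2.49, adjusted p = 0.00238, edgeR -2.32, adjusted p = 0.000219). Dusp4 RPF was called by neither. DESeq2 called 8 members in the S51 RPF response.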
